A study of Homo sapiens with 24 samples.

Results

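P3HR1 is an established Burkitt lymphoma line, a B-cell tumour line that carries Epstein-Barr virus. The comparison described here set cells that made the miR-28 precursor against control cells 12 h after induction, on 12 of the 24 arrays of the series, chosen by their titles. All cells carried the doxycycline-inducible vector pRTS1, control cells with GFP alone and miR-28 cells with GFP and the miR-28 precursor. Both vectors were carried by 2 separately named bulk populations (A and B), and 3 inductions of each gave 6 control and 6 miR-28 arrays at 12 h. The labels disagree on the doxycycline concentration, 0.1 ug/ml under treatment but 1 ug/ml under source, for every array alike. No array here held uninduced cells, and differences that the populations had before doxycycline therefore cannot be told apart from those that came after it. The 6 arrays of a group are separate inductions of 2 populations, so the p-values measure mainly the spread between inductions. RNA came from whole cultures, in which fewer cells of a kind and less RNA per cell cannot be told apart.

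MicroRNAs are short RNAs that guide Argonaute proteins to messenger RNAs, most often through pairing of the microRNA seed with sites in the 3' untranslated region, and this lowers the stability or translation of the messenger RNA. A precursor hairpin can give a mature strand from each arm. miR-28 is encoded in the gene LPP and is known from germinal centre B cells, the cells from which Burkitt lymphoma arises, and for low levels in lymphomas of that origin. The mature 3' arm is shown because it is a product of the precursor that the cells were made to express, with the seed, bases 2 to 8 from the 5' end, in capitals.
hsa-miR-28-3p: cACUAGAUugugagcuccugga
In the RefSeq table of GRCh38.p14 these 22 bases lie on the plus strand at chr3:188688834-188688855, within the interval of LPP. The arrays measured messenger RNA and not the mature microRNA, so the level of miR-28 in these cells was not measured here.

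The values are probe-set intensities on a linear scale, which the authors had scaled to a common trimmed mean, and they were compared as log2(intensity + 8). A log2 difference below 0 means lower in miR-28 cells. The median intensity per array ran from 79.05 to 93.00 in control and from 82.40 to 93.41 in miR-28 cells. Arrays of a 12 h group correlated across the genes tested at r 0.954 to 0.967, and arrays of different groups at 0.956 to 0.966, so the genotypes did not differ in overall profile by more than the arrays of a group did. The log2 ratio of 3' to 5' ACTB control signal, a sign of RNA quality, ran from 0.27 to 1.05, and the highest was on miR-28 array B2. The cells showed B-cell markers: MS4A1 had a mean intensity of 19535 in control and 19465 in miR-28 cells, and CD79A 13682 and 13782. The T-cell genes CD3D and CD3G, the myeloid genes CD14 and LYZ, the NK-cell genes NKG7 and GNLY and the epithelial genes EPCAM and KRT18 lay below the filter on low values. Above it were 2 of 6 T-cell, 2 of 6 myeloid, 1 of 4 NK-cell and 3 of 6 fibroblast and epithelial markers. These were LCK (5713 in control and 5128 in miR-28 cells), CD3E (94.56 and 120.1), CSF1R (88.11 and 96.62), ITGAM (63.27 and 69.78), NCAM1 (81.82 and 122.4), COL1A1 (115.9 and 115.7), DCN (597.4 and 476) and VIM (8435 and 8152). None of the markers that passed the filter was called at 12 h.

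At 12 h, 25 genes rose and 36 fell, 61 in all of the 11380 tested, by limma with a Benjamini-Hochberg adjusted p under 0.05. That is 0.536% of the genes tested, 0.220% higher and 0.316% lower. A further measure needs no model: in 97 genes, 0.852% of those tested, the 6 miR-28 arrays did not overlap the 6 control arrays. Of the 61 called genes 43 had no overlap, 16 of the rises and 27 of the falls. The calls rest on the same arrays, so this describes the called genes and is no second test of them. The median difference over all genes was 0.013 and 6087 of the 11380 genes lay above 0. Each array had been scaled to a common trimmed mean beforehand, so a shift shared by most genes could not be seen here. Before adjustment 1100 genes had a p under 0.05.

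Among the called genes, rises and falls differed in brightness. Of the 11380 genes tested, 4839 had a mean log2 above 10, and the counts below are not shares of the genes tested in each range. Of the 12 called genes with a mean log2 intensity up to 8, 8 rose, and their median absolute difference was 1.68. In the bright range from 10 to 12 there were 27 called genes, of which 7 rose and 20 fell, with a median absolute difference of 0.48. Above 12 there were 10, of which 3 rose, with a median of 0.39. Large differences were thus found mostly in dim genes and small ones in bright genes, where the arrays of a group lie closer together. At least 1.5-fold changes were seen in 15 of the rises and 14 of the falls.

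**Figure D1:**
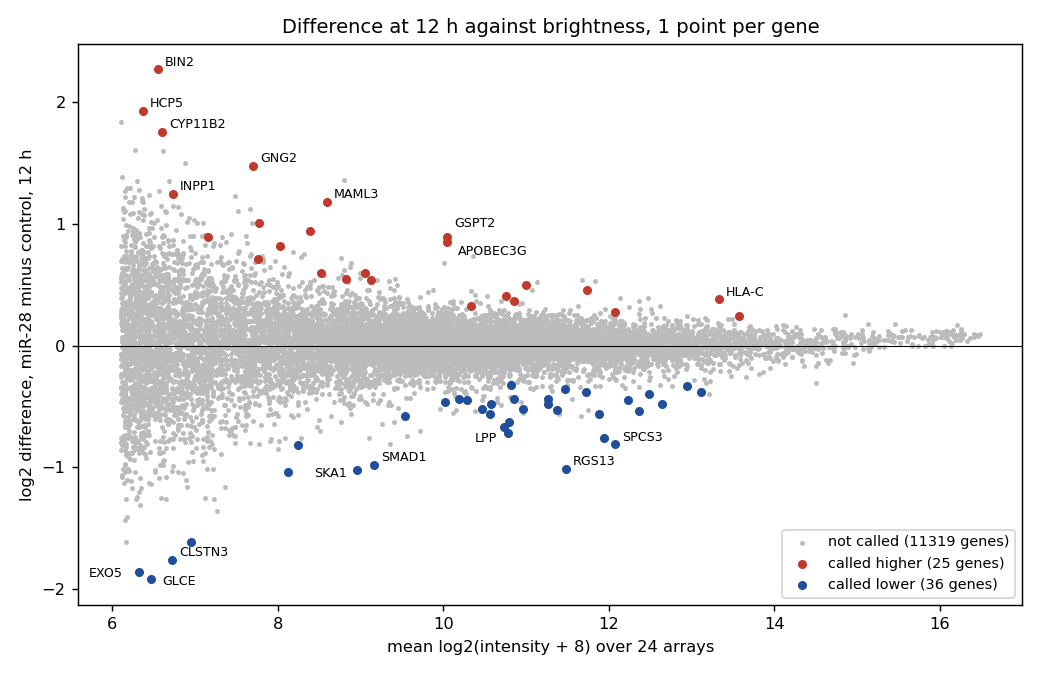
Log2 difference between miR-28 and control cells at 12 h (vertical axis) against the mean log2(intensity + 8) over 24 arrays (horizontal axis), 1 point per gene, with the 25 called rises in red and the 36 called falls in blue. The cloud narrows from left to right, and called genes with a mean above 10 lie mostly below 0.

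The count depended on single arrays. Leaving out 1 array in turn gave 8 to 19 rises and 20 to 31 falls. Rises were fewest without control A1 (8), and numbered 15 without control A2, 13 without control B2, 14 without miR-28 A1, 14 without miR-28 A2, 13 without miR-28 A3, 12 without miR-28 B2 and 12 without miR-28 B3. Falls were fewest without control A1 (20) and numbered 24 without miR-28 A2. All 12 leave-one-out fits kept the call of 24 of the 61 genes, while 18 rises and 19 falls lost it without at least 1 array, at adjusted p up to 0.138. With the arrays centred on the median of all probe sets 12 genes rose and 33 fell, against the 25 and 36 above. With the mean of each population as the unit, 2 against 2, limma called 0 genes in either direction. With the mean of all probe sets of a gene, 21 of the 59 called genes that still passed the filter kept the call, 35 lost it with the same sign and 3 turned sign. In 8 of the 61 the mean of 1 group lay below the filter: the control mean in the rises BIN2, HCP5, CYP11B2 and INPP1, and the miR-28 mean in the falls GLCE, CLSTN3, KIF9-AS1 and EXO5. Both means were above it in 53, of which 21 rose and 32 fell.

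The 9 falls with the smallest p are given first. SPCS3, part of the signal peptidase that removes signal sequences from secreted proteins, had intensities of 5102, 5640 and 6412 (lowest, median and highest of 6 control arrays) against 2989, 3192 and 3747 in miR-28 cells. Every miR-28 array lay well below every control array, and the fall was 0.81 ± 0.08 (log2 difference ± SE, 6 against 6 arrays; limma adjusted p 5.58e-06). TBC1D4, which switches off RAB GTPases that move glucose-transporter vesicles, ran from 2987 over 3045 to 3278 in control and from 1934 over 2266 to 2382 in miR-28 cells. It fell by 0.48 ± 0.06 (adjusted p 0.000126), a small but tight difference: the control SD was 110 and the miR-28 SD 158. The kinase gene STK35 had 2113, 2213 and 2603 in control and 1261, 1434 and 1763 in miR-28 cells. There was again no overlap, and STK35 fell by 0.63 ± 0.08 (adjusted p 0.000491).

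SLC37A4 encodes the transporter that carries glucose 6-phosphate into the endoplasmic reticulum. Its intensities were 811.8, 929.2 and 1038 in control against 498.5, 610.1 and 781.5 in miR-28 cells, and it fell by 0.58 ± 0.10 (adjusted p 0.00813). The groups came close, with miR-28 A2 at 781.5 and control A2 at 811.8. PEX2, a ubiquitin ligase subunit needed to import proteins into peroxisomes, had 1477, 1513 and 1685 in control and 1019, 1161 and 1218 in miR-28 cells. It fell by 0.45 ± 0.07 (adjusted p 0.00813) with no overlap. HDLBP, the RNA-binding protein vigilin, had 2956, 3296 and 3568 against 2029, 2262 and 2564, and fell by 0.53 ± 0.09 (adjusted p 0.00813), but had 0.02 with the mean of all its probe sets, dim ones included. Within miR-28 cells 4 of the 6 HDLBP arrays lay between 2204 and 2271, and A1 was the highest.

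GLCE and CLSTN3 were dim, and their miR-28 means lay below the filter, so both passed it only through arrays where they were higher, and the size of their fall is uncertain. GLCE, the epimerase that turns glucuronic into iduronic acid in heparan sulfate, had 109.2, 159.8 and 191.1 in control and 12.26, 39.66 and 73.15 in miR-28 cells. The miR-28 arrays split, with A1, B2 and B3 at 12.26 to 18.74 and the other 3 at 60.57 to 73.15, and GLCE fell by 1.92 ± 0.34 (adjusted p 0.0107). CLSTN3, a calsyntenin of the cadherin family, had 62.86, 152.9 and 196.7 against 17.89, 29.66 and 107.2. Here the groups overlapped, since miR-28 A1 at 107.2 lay above control B1 at 62.86, and the fall was 1.76 ± 0.31 (adjusted p 0.0107). NT5C3A, a nucleotidase of pyrimidine breakdown, was bright, at 6678, 6949 and 8552 in control and 5281, 5518 and 5750 in miR-28 cells. It fell by 0.40 ± 0.07 (adjusted p 0.0107). Each of these 9 falls kept its call without any 1 of the 12 arrays, the highest adjusted p being 0.0309.

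Of the rises GSPT2 had the smallest p. It encodes a release factor GTPase of translation termination, and its intensities were 570.9, 742.6 and 922.3 in control against 1274, 1412 and 1479 in miR-28 cells. No array overlapped, the miR-28 arrays lay close together (SD 85.1, against 132 in control), and GSPT2 rose by 0.89 ± 0.11 (limma adjusted p 0.000339). DHRS7, a short-chain dehydrogenase, had 2667, 2878 and 3102 in control and 3504, 3949 and 4422 in miR-28 cells, and rose by 0.46 ± 0.07 (adjusted p 0.00513). APOBEC3G, a cytidine deaminase that restricts retroviruses, had 748.4, 851.9 and 991.1 against 1038, 1590 and 2171. Its rise was 0.85 ± 0.16 (adjusted p 0.0117), and the 3 arrays of miR-28 population A (1589, 2171 and 2005) included the 2 highest, while 2 of population B (1591, 1038 and 1145) were the lowest.

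BIN2, HCP5 and GNG2 were dim in control cells. The control means of BIN2 and HCP5 lay below the filter, which they passed only through arrays where they were higher, so the size of their rise is uncertain. BIN2, a BAR-domain protein that shapes membranes, had 22.95, 33.54 and 45.91 in control and 77.82, 227.7 and 260 in miR-28 cells. The miR-28 array B2 at 77.82 stood well below the other 5, which began at 178.6, yet above every control, and BIN2 rose by 2.27 ± 0.41 (adjusted p 0.0107). HCP5, a long noncoding RNA gene of the MHC class I region, had 13.66, 29.49 and 53.63 against 95.88, 119.1 and 191.4, and rose by 1.93 ± 0.36 (adjusted p 0.0128, and 0.0556 without control A1). GNG2, a gamma subunit of heterotrimeric G proteins, had 59.69, 107 and 146.1 in control and 221.5, 289 and 415.8 in miR-28 cells. In both GNG2 and HCP5 all miR-28 arrays lay above all controls, and GNG2 rose by 1.48 ± 0.27 (adjusted p 0.0107).

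RGS20, a GTPase-activating protein for G protein alpha subunits, had 337, 373.6 and 461 in control against 486.8, 558.1 and 653.8 in miR-28 cells. It rose by 0.55 ± 0.11 (adjusted p 0.015), with a narrow gap between control B1 and miR-28 B3. MREG, which acts in the transport of lysosome-related organelles, had 350.5, 396.6 and 464.6 against 490.4, 624.6 and 666, and rose by 0.60 ± 0.12 (adjusted p 0.016). The miR-28 array B1 was the low one for MREG, and the others began at 601.1. FER, a cytoplasmic tyrosine kinase, had 193.9, 220.6 and 323.5 in control and 387, 464.7 and 553.1 in miR-28 cells. There was no overlap for FER, which rose by 0.94 ± 0.19 (adjusted p 0.0188), but its call was lost without control A1, control B3 or miR-28 B2, at adjusted p up to 0.0595.

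**Figure D2:**
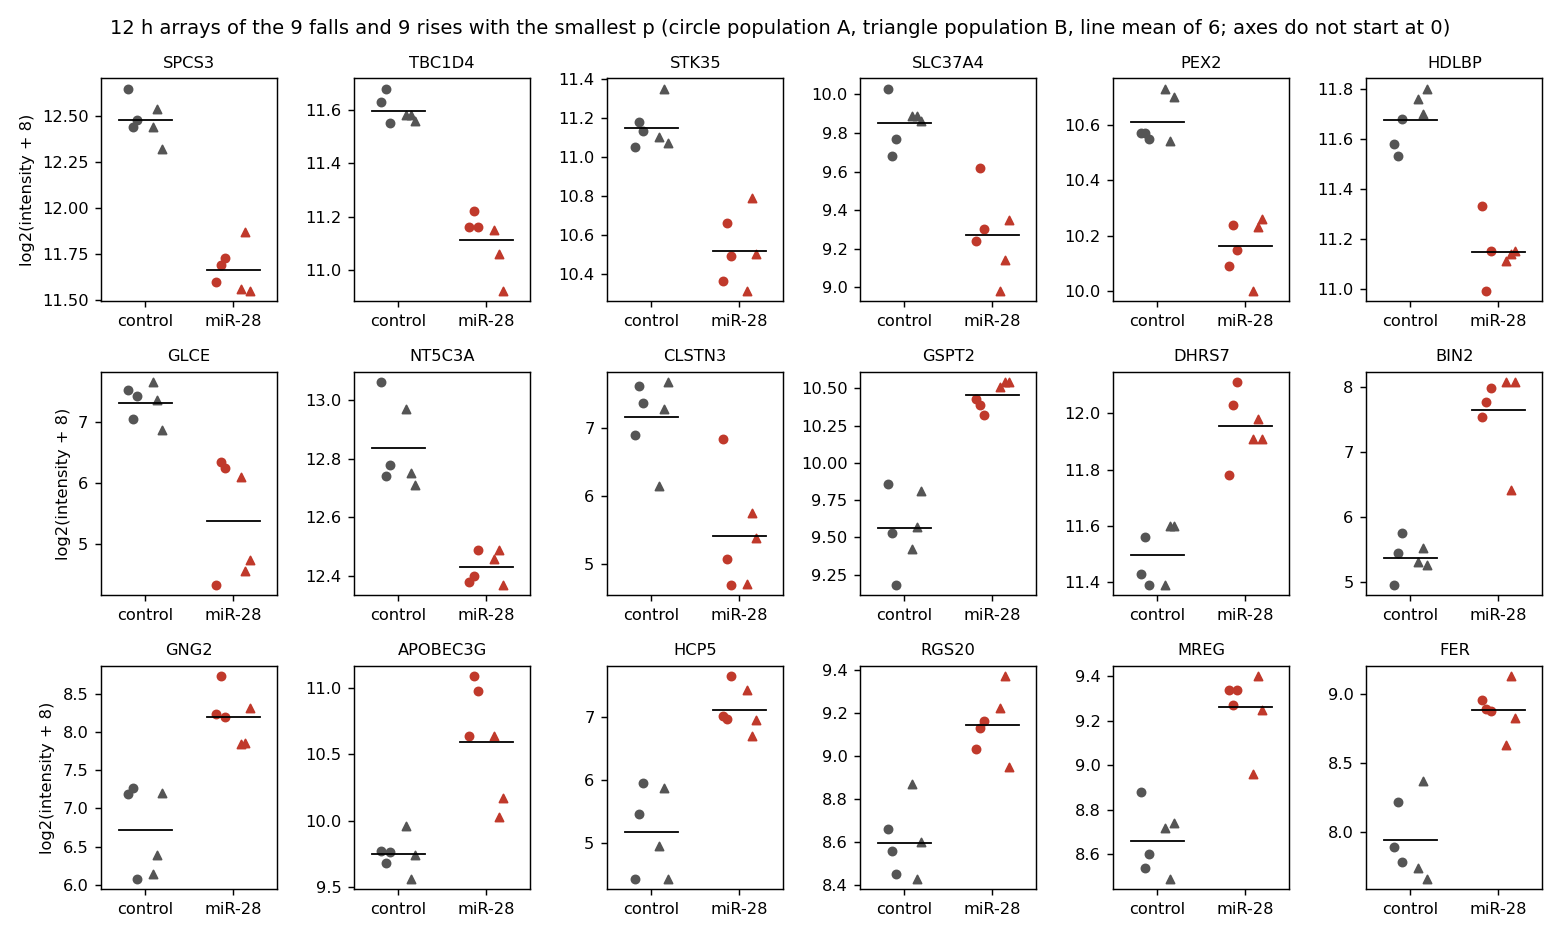
Log2(intensity + 8) on each of the 12 arrays for the 9 falls and 9 rises with the smallest p, control in grey and miR-28 in red, circles for population A and triangles for population B, with a line at each mean of 6. The groups are apart in each panel except CLSTN3, where miR-28 A1 lies among the controls, and the axes do not start at 0.

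The remaining called genes are given by role. The gene lists used for this were drawn up with the called genes known, so a called member in a list is no independent sign about that list, and each count is read beside the 0.220% higher and 0.316% lower of all genes. LPP, the gene in which miR-28 lies, encodes a LIM-domain protein of cell adhesions. Its intensities were 1696, 1983 and 2333 in control against 1014, 1218 and 1563 in miR-28 cells, with no overlap, and it fell by 0.67 ± 0.12 (adjusted p 0.0107). It was the called member of 13 genes of the microRNA host and machinery list, whose median was 0.00. In that list TNRC6A, a GW182 protein that binds Argonaute, had 0.24 ± 0.10 (adjusted p 0.405). TNS3, a tensin that links integrins to actin, fell by 0.56 ± 0.10, and LCP1, the actin-bundling protein L-plastin of blood cells, fell by 0.38 ± 0.08 (call lost without 5 of the 12 arrays).

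Targets of miR-28 that had been reported from B-cell lymphoma work, in part on these arrays, did not pass at 12 h. The 4 were all below 0, with a median of -0.29, and all 4 were below 0 in population A and in population B. Since they were reported in part on these arrays, their shared sign is no independent test. MAD2L1, a spindle checkpoint gene, had a mean of 5057 ± 1299 in control and 3888 ± 429 in miR-28 cells (SD, n = 6), a log2 difference of -0.35 ± 0.15 (adjusted p 0.442). The small GTPase gene RAP1B went from 15876 ± 1329 to 13539 ± 872 (-0.23 ± 0.07, adjusted p 0.199). RAB23, a small GTPase of cilia and Hedgehog signalling, had -0.52 ± 0.21 (adjusted p 0.403), and BAG1, a co-chaperone that protects from apoptosis, -0.12 ± 0.07 (adjusted p 0.59). Of 8 targets reported in other cells that were on the array, 7 lay above the filter on low values. None of the 7 was called, and their median was -0.04. The antioxidant transcription factor gene NFE2L2 had the largest difference of the 7, -0.55 ± 0.19 (adjusted p 0.297), with 2562 ± 799 in control and 1688 ± 233 in miR-28 cells. For the others the values were -0.16 ± 0.09 for E2F6, -0.04 ± 0.10 for N4BP1, 0.04 ± 0.10 for OTUB1, -0.09 ± 0.08 for TEX261, -0.03 ± 0.16 for HOXB3 and 0.04 ± 0.08 for NME1.

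Genes of the secretory pathway and of vesicle traffic were called in both directions. Among 15 genes of signal peptidase and the translocon SPCS3 was the 1 called, and the list median was -0.04. SRPRB, a subunit of the receptor for the signal recognition particle, had -0.26 ± 0.07 (adjusted p 0.115). Of 22 genes of the unfolded protein response and endoplasmic reticulum degradation 1 fell, EDEM1, which sorts misfolded glycoproteins for destruction, from 2301 ± 174 to 1689 ± 127 (-0.44 ± 0.08, adjusted p 0.0107). The list median was -0.01, and HSPA5, the main chaperone of that compartment, had -0.17 ± 0.06 (adjusted p 0.334). JAGN1, an endoplasmic reticulum protein needed for secretion in neutrophils, fell by 0.36 ± 0.08 (call lost without 8 arrays). Of 31 RAB GTPases and TBC-domain regulators 2 fell, TBC1D4 and RAB8B (-0.44 ± 0.09, call lost without 7 arrays), and the median was 0.00. OSBPL3, an oxysterol-binding protein at membrane contacts, fell by 0.52 ± 0.12 (call lost without 10 arrays). Traffic genes that rose were VPS54, a tether of endosome-to-Golgi vesicles (0.33 ± 0.07, call lost without 8 arrays), AP1S1, a subunit of the clathrin adaptor AP-1 (0.54 ± 0.12, lost without 10), ASAP3, which inactivates ARF GTPases (0.60 ± 0.14, lost without 9), and LZTFL1, a regulator of ciliary traffic (0.89 ± 0.20, lost without 10). SDCBP, the exosome scaffold syntenin, rose by 0.28 ± 0.06, and its call was lost without 8 arrays.

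Signalling genes were called in both directions too. RGS13, which dampens chemokine-receptor signals in germinal centre B cells, had 2088, 3510 and 5447 in control against 1539, 1846 and 1930 in miR-28 cells. The controls were spread widely (SD 1352, against 169), the groups did not overlap, and RGS13 fell by 1.01 ± 0.21 (adjusted p 0.0259, call lost without 6 arrays, adjusted p up to 0.0777). Of 23 regulators and subunits of G protein signalling 1 fell, RGS13, and 2 rose, GNG2 and RGS20, around a median of -0.07. SMAD1, a transcription factor of bone morphogenetic protein signals, had 690.1, 863.9 and 1064 in control and 389.2, 419 and 474.7 in miR-28 cells. It fell by 0.98 ± 0.18 (adjusted p 0.012), kept its call in all 12 leave-one-out fits, and was the 1 called of 18 genes of that pathway (median -0.10), where the receptor gene BMPR2 had -0.65 ± 0.25 (adjusted p 0.363). MAML3, a coactivator of Notch receptors, rose by 1.18 ± 0.26 (adjusted p 0.0362, call lost without 7 arrays) and was the 1 called of 11 Notch genes, of which NOTCH1 had -0.58 ± 0.23 (adjusted p 0.395). The kinase genes MAPK6 (-0.45 ± 0.08, but -0.00 with the mean of its probe sets) and STK26 (-0.52 ± 0.11, call lost without 8 arrays) fell. Of 25 genes of B-cell receptor and phosphoinositide signalling 2 rose and the median was 0.00. They were FER and INPP1, an inositol phosphatase that was dim (60.04 ± 21.8 in control, 157.1 ± 55.8 in miR-28 cells) and lost its call without 10 arrays. No other member was called, the receptor chains CD79A and CD79B being at 0.00.

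RFC3, which loads the replication clamp, had 4600, 5471 and 6058 in control and 3235, 3739 and 4424 in miR-28 cells, and fell by 0.54 ± 0.10 (adjusted p 0.0117) with no overlap. E2F2, a transcription factor of entry into S phase, fell by 0.48 ± 0.10 (adjusted p 0.0208, call lost without control A1, control A2 or miR-28 A2, adjusted p up to 0.0676). These were the 2 called of 33 G1/S and replication genes, with a median of -0.14 and 1 of 33 above 0, against a median of 0.013 over all genes. By population the control arrays also differed in this list: its median was 0.17 higher in control A than in control B, and 0.16 higher in miR-28 A than in miR-28 B, about the size of the difference between the genotypes. CCND3, the cyclin D of mature B cells, fell by 0.48 ± 0.10 (adjusted p 0.0313, call lost without 10 arrays). SKA1, which couples kinetochores to microtubules, was the 1 called of 14 outer kinetochore genes (median -0.02). It fell by 1.02 ± 0.21, with 185.4 to 470.6 in miR-28 cells against 459.5 to 906.7 in control, which overlap, and the call lost without 7 arrays. None of 14 spindle checkpoint or 24 G2/M genes was called, with medians of 0.01 and 0.00, and the cytokinesis gene ANLN had -0.35 ± 0.10 (adjusted p 0.156). EXO5, a DNA repair exonuclease, was dim (114.7 ± 44.3 and 34.85 ± 45.6) and fell by 1.86 ± 0.40 with overlapping groups, its call lost without 10 arrays. It was the 1 called of 17 recombination and repair genes (median -0.08). DCTPP1, which clears dCTP from the nucleotide pool, fell by 0.33 ± 0.06 (adjusted p 0.0128), and REC8, a cohesin subunit of meiosis, rose by 0.50 ± 0.11 (call lost without 9 arrays).

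Genes of RNA handling and translation included GSPT2, HDLBP, G3BP2, NXT2 and SNUPN. G3BP2, an RNA-binding protein of stress granules, fell from 4654 ± 611 to 3142 ± 354 (-0.56 ± 0.10, adjusted p 0.012). NXT2, a cofactor of messenger RNA export, fell by 0.44 ± 0.08 (adjusted p 0.0155, and 0.0595 without control A1), and SNUPN, which imports spliceosomal particles into the nucleus, fell by 0.32 ± 0.06 (adjusted p 0.016, and 0.0528 without control A1). Of 8 translation termination genes GSPT2 was the 1 that rose, and none fell. ETF1, the partner release factor, had -0.28 ± 0.07 (adjusted p 0.103), opposite in sign to GSPT2. DNAJA2, a co-chaperone, fell by 0.72 ± 0.17 and UBE3C, a ubiquitin ligase, by 0.46 ± 0.09, with their calls lost without 10 and 6 arrays. With the mean of its probe sets UBE3C had 0.05.

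HLA-C, an MHC class I heavy chain, had 8052, 9264 and 10939 in control against 10655, 12253 and 13358 in miR-28 cells. The groups overlapped at their edges, and HLA-C rose by 0.38 ± 0.08 (adjusted p 0.0263, call lost without 7 arrays, adjusted p up to 0.0777). Class I genes are alike in sequence, and the HLA-C probe set is of the class that Affymetrix marks as open to cross-hybridisation, so its signal may be shared. HLA-C and the noncoding gene HCP5 were the 2 called of 23 antigen presentation genes, with a median of 0.12 and 18 above 0. LTA4H, which makes leukotriene B4, rose by 0.24 ± 0.05 (adjusted p 0.0188), the smallest difference among called genes, with its call lost without control A1 or miR-28 B3 (adjusted p up to 0.0615). TSC22D3, a glucocorticoid-induced regulator of lymphocytes, rose by 0.41 ± 0.09 (call lost without 11 arrays). Among 22 germinal centre genes RGS13 was the 1 called, the median was -0.12 and 5 were above 0. There LMO2, a LIM-only transcriptional cofactor of that stage, had -0.35 ± 0.11 (adjusted p 0.235).

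Of 20 genes of heparan sulfate synthesis and O-glycosylation 2 fell, GLCE and GALNT14, around a median of -0.03. GALNT14, which starts mucin-type glycans, had 319.3 ± 95 in control and 155.3 ± 60.8 in miR-28 cells, and fell by 1.04 ± 0.22 (call lost without 8 arrays). The redox enzyme gene GLRX fell by 0.76 ± 0.16 (call lost without 8 arrays) and the metal transporter gene SLC39A14 by 0.38 ± 0.09, a call lost without each of the 12 arrays in turn. With the mean of its probe sets SLC39A14 had 0.01. ATP2B4, a calcium pump of the plasma membrane, rose by 0.82 ± 0.18 (call lost without 10 arrays). CYP11B2, the aldosterone synthase of the adrenal gland, was dim here (63.31 ± 33.4 and 209.5 ± 42.7) and rose by 1.76 ± 0.40 with the call lost without 11 arrays. KIF9-AS1 (-1.61 ± 0.33) and the ciliary gene DRC3 (-0.82 ± 0.17) fell, with calls lost without 6 and 8 arrays. TCEAL3 (1.01 ± 0.21), KRCC1 (0.37 ± 0.08) and GPNMB (0.71 ± 0.16), a glycoprotein of lysosomes and melanosomes, rose, with calls lost without 7, 11 and 10 arrays. In the lists of ATF4 response (20 genes), apoptosis (17) and p53 (16) none was called, and the medians were 0.07, 0.00 and 0.01. Their members with the smallest p were DDIT4, an inhibitor of mTOR (0.37 ± 0.11, adjusted p 0.182), the initiator caspase gene CASP8 (0.18 ± 0.10) and GADD45A, a growth-arrest gene (0.38 ± 0.12, adjusted p 0.215).

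The bulk populations were compared next. Populations of the same letter are not known to be related across the vectors, so the letters are used as names only. All 61 called genes had the same sign in A (miR-28 A against control A) and in B. In all 61 both miR-28 population means also lay on the called side of both control population means, a pattern that held for 4193 of all genes, 36.8%. The calls rest on the same 12 arrays, so this describes the called genes and is no second test of them. For SPCS3 the population means were 5891 and 5531 in control A and B, and 3258 and 3251 in miR-28 A and B. The A difference was the larger in 32 of the 61, the median ratio of the larger to the smaller was 1.28, and 5 genes had differences more than 2-fold apart. MAML3 was one of them, at 1.81 in A and 0.56 in B (unadjusted p 0.00492 by limma for the difference), as were INPP1 (1.83 and 0.66, p 0.0468), APOBEC3G (1.16 and 0.53, p 0.0286) and KRCC1 (0.20 and 0.53, p 0.044). Those 4 were the called genes with an unadjusted p under 0.05 between populations, and none of the 4 passed the adjustment.

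Each population was also tested alone, with the spread taken from all 24 arrays. Population A gave 4 rises and 2 falls and population B 1 rise and 5 falls. Of the 6 genes called in A all had the same sign in B, and 3 had an unadjusted p under 0.05 there. Of the 6 called in B, 5 had the same sign in A and 4 a p under 0.05. The differences in A and in B come from separate arrays, but their p-values share the estimate of spread, so they are not independent tests. Across all genes the signs were the same in 52.6%, and the correlation of A with B differences was r = 0.038 over 11380 genes. Among the 4839 genes with a mean log2 above 10 these were 54.1% and r = 0.204. Genes with an unadjusted p under 0.05 in A numbered 949, of which 58.7% had the same sign in B, or 66.9% of the 363 with a mean log2 above 10. In the other direction 821 genes had such a p in B, and 61.4% had the same sign in A, or 69.8% of the 301 bright ones. The agreement between populations was thus weak over all genes and closer for bright genes and for those with small p. Genes are not independent of each other, and these values are descriptions.

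**Figure D3:**
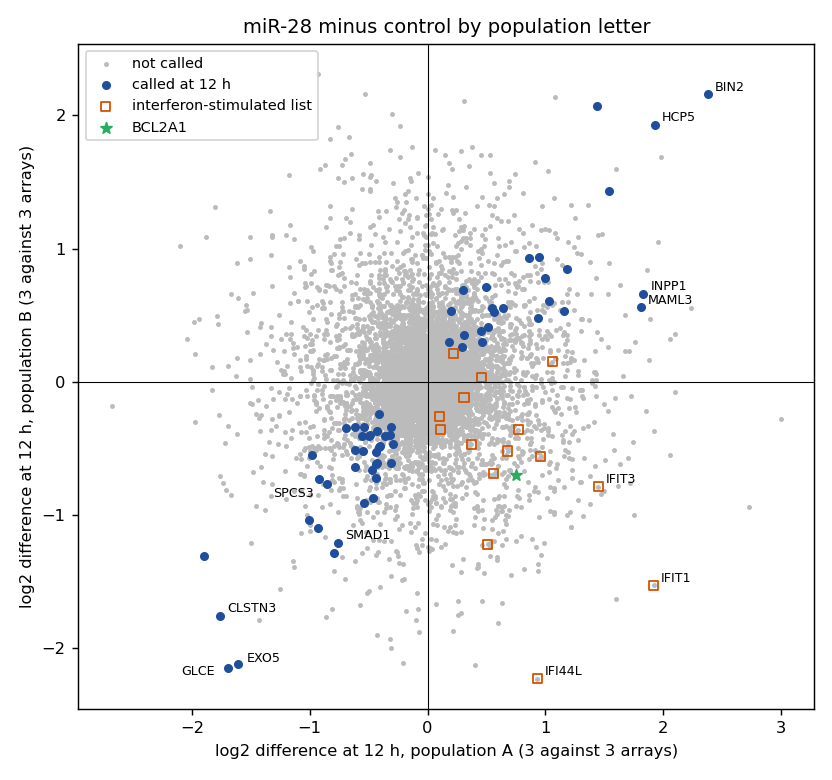
Log2 difference between miR-28 and control at 12 h in population A (horizontal) and in population B (vertical), 1 point per gene, called genes in blue, interferon-stimulated genes as open squares and BCL2A1 as a star. All 61 called genes lie at the lower left or upper right, while the cloud of other genes is nearly round (r = 0.038), and IFIT1, IFIT3, IFI44L and BCL2A1 lie to the lower right.

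One gene differed between populations in its miR-28 difference, 0.00879% of the 11380 tested. BCL2A1, an anti-apoptotic BCL2 relative that NF-kB induces in B cells, had 486, 378.8 and 348.4 in the inductions of control A and 705.5, 713.4 and 626.9 in miR-28 A. In control B it had 807.1, 712.5 and 720.3, and in miR-28 B 475.2, 465.3 and 424.1. It was thus higher with miR-28 in A (0.75) and lower in B (-0.70), and no array of one overlapped the other within either letter. The difference of A minus B was 1.46 (limma adjusted p 0.0179), while over both populations it was 0.02 ± 0.19. The call was lost without control A2, A3, B1, B2 or B3 and without miR-28 A2, B2 or B3, with an adjusted p of 0.0534 to 0.0975 and a difference of 1.36 to 1.49. With letters crossed the values were -0.13 (miR-28 A against control B) and 0.18 (miR-28 B against control A), so the split rests on which control population is taken.

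Most of the interferon-stimulated genes measured had the same split, and none of them was called. These antiviral genes are induced by interferons. Of 23 on the array, 15 lay above the filter on low values. All 15 were above 0 in A, with a median of 0.56, and 3 of 15 were above 0 in B, with a median of -0.47. Over all genes the medians were 0.01 and 0.01, and 51.4% and 52.9% were above 0. In 12 of 15 the difference was above 0 in A and below 0 in B, a pattern of 22.9% of all genes, and 7 had an unadjusted p under 0.05 between populations, against 6.37% of all genes. IFIT1, which binds viral RNA, had population means of 150.2 in control A, 398.4 in control B, 592.2 in miR-28 A and 133.4 in miR-28 B. For ISG15, a ubiquitin-like modifier, these were 6467, 8555, 10989 and 6624, and for IFIT3 160.1, 305.8, 450.3 and 173.3. IRF9 and ISG20, the 2 of largest absolute statistic over both populations, did not split. IRF9 had 0.46 in A and 0.03 in B, and ISG20 0.22 and 0.21. The mean log2 level of the 15 genes was 8.42 to 8.53 on control A arrays, 8.86 to 8.98 on control B, 9.16 to 9.17 on miR-28 A and 8.25 to 8.53 on miR-28 B. Control A and miR-28 B were thus the low populations and control B and miR-28 A the high ones.

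**Figure D4:**
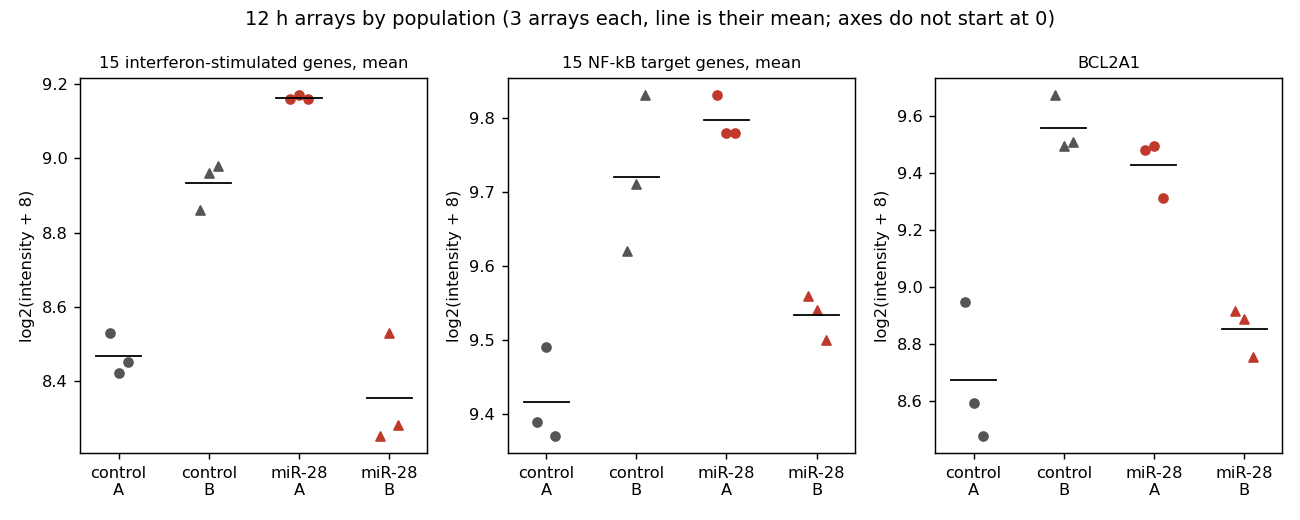
Mean log2(intensity + 8) of 15 interferon-stimulated genes, of 15 NF-kB target genes, and of BCL2A1 alone, on each 12 h array by population, control in grey and miR-28 in red, with a line at each mean of 3. In all 3 panels control A and miR-28 B are low and control B and miR-28 A high, and the axes do not start at 0.

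NF-kB targets, induced by the RELA and REL family of factors, had medians of 0.39 in A (13 of 15 above 0) and -0.11 in B (6 of 15 above 0). None was called in the miR-28 comparison over both populations, and 6 had an unadjusted p under 0.05 between populations, BCL2A1 among them. CD83, a surface marker of activated B cells, had population means of 1385 in control A, 1881 in control B, 1855 in miR-28 A and 1350 in miR-28 B. NFKB2, which encodes the p100 precursor, had 313.5, 492.8, 515.2 and 423.1. REL itself went the other way, with 6606, 6133, 5830 and 6246. CFLAR and NFKBIA, the 2 of largest absolute statistic over both populations, were above 0 in both letters. CFLAR had 0.41 in A and 0.06 in B, and NFKBIA 0.57 and 0.01. Members of both lists not named by that statistic were picked after their values were seen, so this is a description. Control A against control B gave 0 called genes and 640 with an unadjusted p under 0.05, and miR-28 A against miR-28 B 0 and 734, so limma called no gene between populations of one vector.

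Other probe sets of the same gene were then read as a second measurement on the same arrays. Affymetrix designs several probe sets for many genes, often at different 3' ends or transcript forms, and they can differ because they read different transcripts or because one is dim. Of the 61 called genes 33 had at least 1 other probe set above the filter, 55 in all, and 28 had none. Of the 55, 45 had the sign of the called one (81.8%), against 57.8% of 10663 such probe sets of all genes and 57.7% of those of genes not called. All others had the same sign in 23 genes, signs were mixed in 8 genes, and in 2 genes no other probe set had the sign. In 17 genes at least 1 other probe set had the same sign with an unadjusted p under 0.05 (21 probe sets), and none had the opposite sign with such a p.

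**Figure D5:**
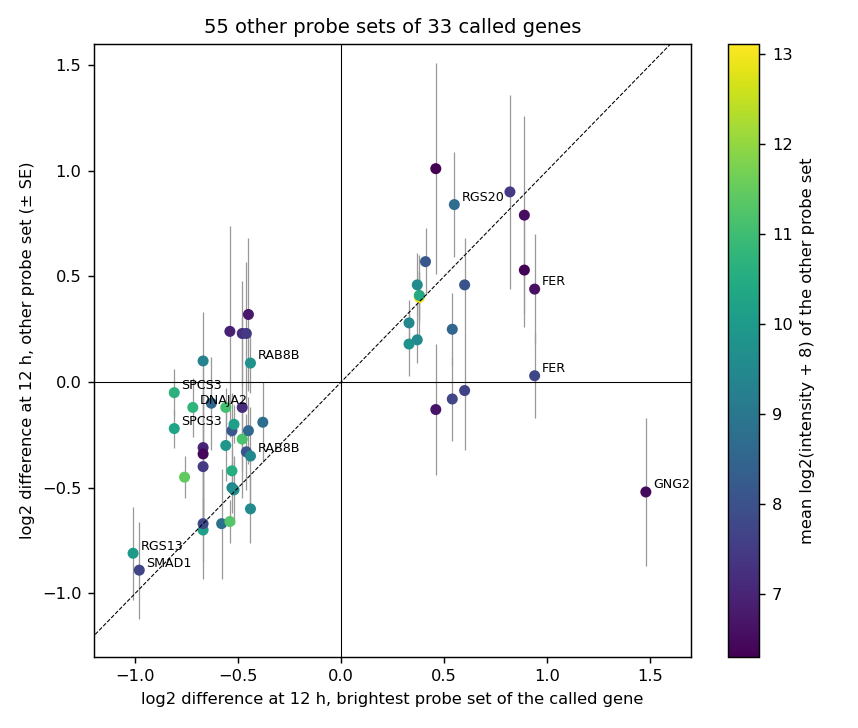
Log2 difference at 12 h (± SE) of 55 other probe sets (vertical) against that of the brightest probe set of the same called gene (horizontal), for 33 genes, coloured by the brightness of the other probe set, with a dashed line where both are equal. Most points (45 of 55) lie at the lower left or upper right, the 2 SPCS3 points lie near 0, and GNG2 lies at the lower right.

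Genes differed in how well their probe sets went together. LPP had 6 others, of which 5 were below 0, among them -0.70 ± 0.15 and -0.67 ± 0.26, and 1 was at 0.10 ± 0.23. HDLBP had -0.42 ± 0.10, -0.50 ± 0.12 and -0.23 ± 0.18 beside the -0.53 used, all from probe sets above the filter, while the mean that takes in those below it gave 0.02. For HLA-C all 3 others were alike, at 0.40 ± 0.12, 0.41 ± 0.11 and 0.41 ± 0.19. These 3 are also of the class open to cross-hybridisation, so they may share class I signal and are no separate sign of HLA-C. RGS13 (-0.81 ± 0.22), SMAD1 (-0.89 ± 0.23), GLRX (-0.45 ± 0.10), STK26 (-0.51 ± 0.16), NXT2 (-0.60 ± 0.16), TSC22D3 (0.57 ± 0.16) and RGS20 (0.84 ± 0.25) each had another probe set of the same sign with an unadjusted p under 0.05. In RFC3 the other bright one fell too, at -0.66 ± 0.10, while a dim one had 0.24 ± 0.50.

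SPCS3 was not alike across its probe sets. The brightest, with the smallest p of all genes, went from 5711 to 3254. It is of the class that Affymetrix marks as open to cross-hybridisation. So are the probe sets used for 7.28% of the genes tested. Among the 61 called genes they are the 5 used for SPCS3, HDLBP, HLA-C, SKA1 and KRCC1. What these may cross-hybridise with was not tested. The other SPCS3 probe sets went from 1599 to 1552 (-0.05 ± 0.11) and from 1339 to 1148 (-0.22 ± 0.09). DNAJA2 had -0.12 ± 0.14 from a probe set nearly as bright as the called one (mean log2 10.72 and 10.78), against -0.72. G3BP2 had -0.12 ± 0.09 and -0.30 ± 0.17 beside -0.56, and RAB8B 0.09 ± 0.14 and -0.35 ± 0.23 beside -0.44. FER had 0.03 ± 0.20 and 0.44 ± 0.26 beside 0.94, and GNG2 -0.52 ± 0.35 from a dim probe set beside 1.48. STK35 had -0.10 ± 0.22 from a dimmer probe set beside -0.63, and ASAP3 -0.04 ± 0.28 beside 0.60. TBC1D4 had -0.27 ± 0.15 beside -0.48, with -0.03 in A and -0.51 in B. The others of E2F2 had 0.23 ± 0.25 and -0.12 ± 0.43 beside -0.48, and those of AP1S1 0.25 ± 0.17 and -0.08 ± 0.20 beside 0.54. Which transcript forms these probe sets read was not tested.

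When each of 22043 probe sets was tested singly, limma called 58, 0.263%, of which 13 were higher and 45 lower. They lay in 53 genes, 42 of them called above through the same brightest probe set. A further 11 genes were called only by a probe set that was not their brightest. ATPAF1, an assembly factor of mitochondrial ATP synthase, had the smallest p of these: its second probe set went from 1694 in control (1516 to 1876) to 748.2 in miR-28 cells (628.7 to 856.5), -1.17 ± 0.09 (adjusted p over probe sets 6.49e-08), with -1.24 in A and -1.11 in B. Its brightest probe set gave 0.13 ± 0.08. G3BP1, the stress-granule relative of G3BP2, had a probe set that fell from 4441 to 3255 (-0.45 ± 0.06, adjusted p 0.000448), while its brightest gave 0.08 ± 0.06. PPP6C, a protein phosphatase catalytic subunit, fell on 2 dimmer probe sets (-0.58 ± 0.08 and -0.47 ± 0.09), while its brightest gave 0.06 ± 0.07.

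The remaining genes of this kind are given with the value of the brightest probe set. RPRD1A, which binds the tail of RNA polymerase II, fell on 2 probe sets (-0.83 ± 0.13 and -0.64 ± 0.13), with its brightest at -0.26 ± 0.10. USP7, the deubiquitinase of MDM2 and p53, fell on one (-0.48 ± 0.10) with the brightest at -0.29 ± 0.09, GALNT1 on one (-0.69 ± 0.15, brightest -0.74 ± 0.18) and the kinase-like gene PXK on one (-0.31 ± 0.07, brightest -0.44 ± 0.11). EEF2K, the kinase of elongation factor 2, had -0.50 ± 0.10 on the called probe set and -0.03 ± 0.08 on the brightest, and HIF1AN, an oxygen-dependent hydroxylase of HIF factors, -0.48 ± 0.09 and -0.04 ± 0.10. SMIM14 (0.59 ± 0.12, brightest 0.17 ± 0.10) and CCDC85A (1.95 ± 0.38, brightest 0.25 ± 0.14) rose. These 11 genes were named after their values were seen, and they are not among the 61.

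At 24 h, on arrays that share none with 12 h, 60 of the 61 genes had the same sign as at 12 h, against 60.3% of all genes. Of these 46 were called again in the same direction, 15 of the 25 rises and 31 of the 36 falls, and 0 in the opposite direction, when 5.35% of all genes were called at 24 h. Both comparisons came from the same limma fit and share its estimate of spread, so the calls at 24 h are not independent of those at 12 h. The same populations were induced at both times, so a difference fixed in the populations would be seen at both. Among the called genes persistence differed with brightness: 3 of the 12 dim ones (mean log2 up to 8) were called again, against 43 of the 49 above 8. The share of all genes called at 24 h was not split by brightness, so these 2 counts have no background of their own. SPCS3 had -0.97 ± 0.08 at 24 h and -0.81 at 12 h, GSPT2 0.86 ± 0.11 and 0.89, and LPP -0.81 ± 0.12 and -0.67. The one change of sign was CLSTN3, at 0.42 ± 0.31 at 24 h against -1.76 ± 0.31.

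The difference was larger at 24 h in 31 of the 61, 23 falls and 8 rises. By the test of growth itself, the miR-28 difference at 24 h minus that at 12 h, limma called 0 genes, and 787 had an unadjusted p under 0.05, 6.92% of those tested. Of the 61, 16 had such a p. The 61 were chosen by their 12 h differences, which also enter this test, so the 16 only describe these genes. Choice by a large 12 h difference also favours a 24 h value nearer 0. In 9 the difference grew, among them RAB8B (from -0.44 to -0.90), SNUPN (-0.32 to -0.63), RFC3 (-0.54 to -0.92), RGS20 (0.55 to 0.98) and NXT2 (-0.44 to -0.75). In 7 it went toward or past 0, all of them genes with a mean log2 between 6.33 and 8.39. These were CLSTN3, GLCE (-1.92 to -0.35), EXO5 (-1.86 to -0.03), KIF9-AS1 (-1.61 to -0.27), DRC3 (-0.82 to -0.05), GPNMB (0.71 to 0.08) and FER (0.94 to 0.38). The smallest adjusted p for growth was 0.291, so none of these changes with time passed over all genes.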

How the data were processed

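Total RNA of 24 P3HR1 cultures was hybridised to Affymetrix arrays, and 12 arrays make the 12 h comparison. The authors deposited MAS5 intensities of 54675 probe sets, per the labels and the submitters' processing notes (version not given in the sources used here), and each array's 2% trimmed mean lay between 500.07 and 500.08. Members and gene lists were chosen with earlier results of these data known, and the lists hold called genes by construction. Intensities were taken as log2(intensity + 8), 62 control probe sets were left out, and GEO's platform annotation gave 1 symbol to 41091 probe sets, several to 1801 and none to 11721. Each gene was read by its brightest probe set, and 11380 of 19775 genes had a mean log2 above 6.108. limma 3.58.1 (R 4.3.3, statmod 1.5.0) fitted group means over 24 arrays, treating the 4 bulk populations as random blocks (correlation -0.0229), with Benjamini-Hochberg adjustment and a threshold of 0.05. A model of 8 means without block gave the effect in each population and its difference. The code was tested on simulated data. Named were the 9 falls and 9 rises with the smallest p, other called genes, reported targets and, per list, the 2 members of largest absolute statistic, and others are said to be chosen after their values were seen. Alternatives were other filters, pseudocounts, scalings, probe-set summaries, blocks and units, and leaving out each array. The number of arrays limits the precision (median SE 0.135).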

Additional observations from a re-analysis of the deposited data

Results flagged for a closer look

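BIN2 in miR-28 cells had 1 array far from the others of its group: B2 at 77.82, when the next lowest was 178.6, a gap of 0.68 of the group's range. MREG in miR-28 cells had B1 at 490.4, when the next lowest was 601.1, a gap of 0.66 of the range on the same log2 scale. These were 2 of 38 groups of 6 arrays examined by Dixon's criterion, and chance alone gives about 1 in 20. BCL2A1 differed between populations in its miR-28 difference at 12 h, by 1.46 for A minus B (limma adjusted p 0.0179), with opposite signs in A (0.75) and B (-0.70).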

How the results depend on the processing

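Beside the 25 rises and 36 falls, 32 other settings were run. Without a filter on low values 13 rose and 17 fell, and with the mean of each gene's probe sets 7 and 23. With the population mean as the unit limma called 0 and 0. With the 12 h arrays alone 15 rose, and with each probe set singly 13. Population A alone gave 4 and 2, and population B alone 1 and 5. Crossed letters gave 4 and 7 for miR-28 A against control B, and 2 and 5 for miR-28 B against control A. Centring on the median of all probe sets, chosen after seeing the data, gave 12 rises. Leaving out 1 array gave 8 to 19 rises, 20 to 31 falls, 0 to 2 genes that differed between populations, and 0 to 1 gene with growth. The 1 gene that differed between populations became 0 without a filter and with centring on all probe sets, 2 with the mean of probe sets and 10 with the 12 h arrays alone. With the mean of probe sets 3 called falls turned sign, HDLBP (0.02), UBE3C (0.05) and SLC39A14 (0.01). MAPK6 had -0.00 there. The causes were not tested. Control and miR-28 arrays of the same label, A1 to B3, correlated at 0.010 to 0.037 once the group means were removed. Values this low over all genes cannot decide whether arrays of one label were handled together. The replicate block gave 21 rises and 40 falls, with growth in 0 genes. Without any block 18 rose and 34 fell, fewer than with the random block. The correlation of that block was below 0 (-0.0229), which narrows the SE slightly. The block therefore did not allow for a spread between populations. Under the 3 other scalings the medians of the G1/S, germinal centre and reported lymphoma target lists stayed below 0 and that of antigen presentation above 0. The median of the interferon-stimulated genes kept opposite signs in A and B.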
